A study of Homo sapiens with 4 samples.

Results

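The RNAs described here are 100 human sequences whose selected adenosine lay in a DRACG motif, outside the DRACH consensus of N6-methyladenosine (m6A; D stands for any base but C, R for a purine and H for any base but G). Membership was set by design and sequence, though this rule was chosen with earlier results of these data known. Each belonged to the class built around adenosines that crosslinking data from HEK293T cells, a human embryonic kidney line, had placed among methylated sites. All held A, C and G at positions 51, 52 and 53. They make up 100 of the 1988 loci of that class, and 300 of the 11999 oligonucleotides of the pool, since each locus was present as 3 copies that differed only in a tag. The motif was GGACG in 97 loci and GAACG in 3.

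All RNA was transcribed in vitro and carried no modification from cells. In the methylated group (2 libraries) the pool was incubated with recombinant METTL3–METTL14 complex, and in the unmethylated group (2 libraries) without it. Both were then taken through miCLIP2, in which an antibody against m6A is crosslinked to the RNA and reverse transcription stops beside the crosslink. Each value below is a count of such stops at 1 nucleotide, given as counts per 1000000 counts of the library (CPM) with the 3 tag copies of a locus summed. The design states duplicates but not whether these were separate reactions, so p-values measure the spread between these libraries, which may be technical. In totals of whole oligonucleotides over the pool, replicates differed by more than counting noise. The chi-square over its degrees of freedom was 20.7 in the unmethylated and 18.7 in the methylated pair.

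METTL3 is the catalytic subunit of the writer and transfers the methyl group from S-adenosylmethionine, while METTL14 is catalytically inactive and helps to hold the RNA. The consensus in cellular RNA ends in A, C or U, and a G behind the cytosine is the departure from it that all these loci share. A GGACG differs from the frequent GGACU by this last base alone, so the loci let the last position be compared with the bases before the adenosine unchanged.

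The following windows cover bases 37 to 65 of the RNA, written with T for U, with the 5-mer around the selected adenosine in capitals. The first 10 are the loci with the largest rises. WDR6 and the locus inside the spans of LOC101927393 and PACSIN2 follow as strong sites with signal in all libraries. The last 3 carried the same 5-mer and did not pass the test.
ERCC2/KLC3: gcgcagttcactGGACGttagtgggggct
CDIPT: ccgagatgctagGGACGcttgagtgaggg
MAFG: ttatcctaacatGGACGctcagatttcag
CYB5D1/NAA38: ctatctcagtatGGACGgtacacttcaca
KCTD2: cctgtactttaaGGACGctggagccaaga
IER5: gactggagtcggGGACGtttttcagggcg
CILP2: cggtgagttcatGGACGctgtccgggtct
SNRNP25: ctttcacagaaaGGACGttgtggtggcct
DCTN5: tacctgaagaagGGACGaatgggtgctgg
RNF126: tttgaaataaacGGACGtttgagctcacg
WDR6: cggggacaccagGGACGtgggatccgggc
PACSIN2/LOC101927393: ggctggtgcaagGGACGcttggacaacgg
LRFN1: gcccagccgcacGGACGctggggcgggac
SDHAF1: gagccccgtgatGGACGgcaagggaggcc
SLC35E1: acccagccgaggGGACGgtgcataactct

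Libraries held 10483825 and 12028474 counts without the writer and 13110615 and 13265092 with it. Counts of whole member loci varied widely, with a median over the loci between 1461 and 2039 per library, so that precision differed strongly from locus to locus. Whole loci shifted little by comparison with their selected adenosines: the log2 ratio of the locus total, methylated over unmethylated, had a median of 0.18 and quartiles of −0.09 and 0.47.

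Incubation with the writer raised the signal at the selected DRACG adenosine in most of these loci. Summed over all 100 loci, it came to 219.9 and 303.9 CPM without the writer and to 1064 and 851 CPM with it (261.9 ± 59.5 and 957.7 ± 151, SD, n = 2 each), a ratio of 3.66. The groups did not overlap. The exact two-sided permutation p was 0.333, below which a design with 2 libraries per group cannot go. Locus by locus, both methylated libraries lay above both unmethylated ones in 71 of the 100 loci, against 18.3% of all positions in the pool that held at least 1 count. In 0 loci did both lie below.

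Of the 100 loci, 61 reached 10 counts in at least 2 libraries and were tested, all of them GGACG. A locus with little unmethylated signal could enter only through its methylated libraries, so the following counts describe the tested loci alone. By edgeR (quasi-likelihood, p-values adjusted after Benjamini and Hochberg over all tested positions), 48 of 61 rose (78.7%), where 3.70% of all 142938 tested positions rose. None fell, at an unadjusted p under 0.05 either and also in DESeq2, against 2.01% of all tested positions, and all 61 estimates were above 0. The median log2 fold change was 3.14 with quartiles of 1.81 and 4.43. Of the risen loci, 17 had a log2 fold change above 4, 25 lay between 2 and 4, and 6 were lower. Without methylated replicate 1 the median log2 fold change was 1.88 and without methylated replicate 2 it was 2.38. There the filter acted on the remaining libraries, so a locus needed an unmethylated library with at least 10 counts. Most of the largest rises dropped out by this filter, so these medians cover fewer loci. Such fits also take the lone methylated library to vary like the unmethylated pair. DESeq2 called 39 higher.

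A second reading set the adenosine against the total of its own locus. The selected adenosine took 6.18 and 8.40 of every 1000 counts of these loci without the writer, and 27.9 and 22.6 with it. In the fit that uses locus totals as the offset, 50 of 61 loci rose, where 1.80% of all positions did. Single tested loci gave a median of 2.79 per 1000 without the writer (0 to 31.8) and of 21.2 with it (3.45 to 144.3), and 60 of the 61 were larger with it.

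The largest rises started from almost no signal. The locus at position 45351360 of chromosome 19 (GRCh38, minus strand), inside the spans of both ERCC2, a DNA repair and transcription helicase gene, and KLC3, a kinesin light chain gene, had no count in either unmethylated library and 15 and 11 counts in the methylated ones. Its mean of 0.987 ± 0.223 CPM (SD, n = 2) was at least 3.69-fold higher than a floor of 3 counts per library (edgeR adjusted p = 0.00649). CDIPT, the gene for phosphatidylinositol synthase (chromosome 16, position 29858890, minus strand), had 1 count in each unmethylated library and 57 and 110 in the methylated ones, a ratio of 71.3 with a 95% counting interval of 19.4 to 593. MAFG, which encodes a small Maf transcription factor (chromosome 17, position 81919515, minus strand), went from 0 and 2 to 68 and 98 counts, a ratio of 70.8 (19.3 to 590). These intervals cover counting error alone, and their width shows how little the unmethylated counts fix the size of the rise.

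Loci with slightly more unmethylated signal gave firmer values. IER5, an immediate-early response gene (chromosome 1, position 181089282, plus strand), had 0.382 and 0.915 CPM without the writer and 36.3 and 24.1 CPM with it, a log2 fold change of 5.46 ± 0.42 (SE; edgeR adjusted p = 1.15e-08). With the writer its selected adenosine took 144.3 of every 1000 counts of the locus, the highest share among the tested loci, against 4.60 without. SNRNP25, a protein gene of the minor spliceosome (chromosome 16, position 57239, plus strand), went from 0.286 and 0.665 CPM to 16.3 and 18.3 CPM. RNF126, a ubiquitin ligase gene (chromosome 19, position 647822, minus strand), went from 0.382 and 1.16 CPM to 24.4 CPM in both methylated libraries, by 4.89 ± 0.41 on the log2 scale. In these 3 loci every methylated library exceeded every unmethylated one more than 10-fold.

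The remaining loci below completed the 10 largest. CILP2, a cartilage matrix protein gene (chromosome 19, position 19544143, plus strand), had 1 count in each unmethylated library and 61 and 36 with the writer. DCTN5, a dynactin subunit gene (chromosome 16, position 23669614, plus strand), had 0 and 1 against 25 and 20 counts. KCTD2 (chromosome 17, position 75063406, plus strand) had 1 and 0 against 34 and 35 counts, and the locus inside the spans of CYB5D1 and NAA38 (chromosome 17, position 7859551, plus strand) had 1 and 0 against 46 and 26. The ratios of these loci were 41.4, 38.4, 58.9 and 61.5, and the lower ends of their 95% counting intervals 11.2, 6.55, 10.2 and 10.7.

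In several of these loci the whole locus also gained counts. The mean total of MAFG went from 507.5 to 1127 counts, and that of KCTD2 from 1426 to 3770. With locus totals as the offset, MAFG had a log2 fold change of 5.12 in place of 5.96, that of KCTD2 4.53 in place of 5.56, that of CILP2 3.77 in place of 5.20 and that of SNRNP25 3.97 in place of 5.09. All 10 loci remained past the threshold in that fit.

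Among sites with strong signal the rises were graded. WDR6, a WD-repeat protein gene (chromosome 3, position 49012428, plus strand), rose from 1.81 and 4.41 CPM to 85.8 and 75.2 CPM, a log2 fold change of 4.64 ± 0.36 (SE; edgeR adjusted p = 1.31e-08). MLLT1, a chromatin reader of the super elongation complex (chromosome 19, position 6210841, minus strand), rose from 1.91 and 1.99 to 30.2 and 26.8 CPM, and GGA3, a Golgi clathrin adaptor gene (chromosome 17, position 75238269, minus strand), from 0.859 and 1.33 to 39.8 and 16.8 CPM. The locus inside PACSIN2 and LOC101927393 (chromosome 22, position 42871417, minus strand) had the highest mean signal over the 4 libraries of any risen DRACG locus, with 18.6 and 28.02 CPM against 96.03 and 49.2 CPM. Its log2 fold change was 1.61 ± 0.32 (edgeR adjusted p = 0.00240), and this call was lost without methylated replicate 1 (adjusted p = 0.158 by edgeR). Its methylated libraries differed by more than the lower of them exceeded either unmethylated one.

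The 2 DRACG loci with the highest signal of all did not pass the test. SDHAF1, an assembly factor gene of succinate dehydrogenase (chromosome 19, position 35995799, plus strand), already had 78.9 and 103.8 CPM without the writer and 146.7 and 104.3 CPM with it, a log2 fold change of 0.43 ± 0.27 (SE; edgeR adjusted p = 0.430). LRFN1, a synaptic adhesion protein gene (chromosome 19, position 39307575, minus strand), had 47.8 and 66.4 against 106.8 and 104.3 CPM, a change of 0.85 ± 0.27 (edgeR adjusted p = 0.0603). In neither locus did the CPM of the groups overlap, though in SDHAF1 the nearest libraries were 103.8 and 104.3 CPM. Against its own total SDHAF1 passed the threshold with a log2 fold change of 0.84 (edgeR adjusted p = 0.0119), and LRFN1 passed it with scaling by library totals (0.89, edgeR adjusted p = 0.0379), while its value against its own total was 0.59 (edgeR adjusted p = 0.139).

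The other loci with the lowest estimates had weak or uneven signal. SLC35E1, a solute carrier gene (chromosome 19, position 16553576, minus strand), had 15 and 21 counts without the writer and 35 and 23 with it, and NIBAN2 (chromosome 9, position 127505538, minus strand) 12 and 1 against 20 and 8. In CPM the groups overlapped in both. The locus inside LRRC37A2 and RPRML (chromosome 17, position 46978676, minus strand) had 6.96 and 7.98 against 16.6 and 9.95 CPM, with an edgeR adjusted p of 0.156. In all, 13 tested loci were not called, with log2 fold changes of up to 2.15. They summed to 168.5 ± 34.4 CPM without the writer and 271.4 ± 38.9 CPM with it (SD, n = 2 each), a ratio of 1.61, while the 48 risen loci summed to 91.3 ± 26.6 and 677 ± 113.2 CPM, a ratio of 7.41. SDHAF1 and LRFN1 carried most of the former sums. The other 11 loci had 19.99 ± 3.59 CPM without the writer and 40.4 ± 7.20 CPM with it, a ratio of 2.02. The median of the mean locus total was 3877 counts in the 13 loci and 3692 in the 48.

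The 39 loci left untested were mostly shallow. Their mean locus totals had a median of 460 counts, against 3697 in the tested loci, and no library held more than 15 counts at any of their selected adenosines. Together they had 47 counts there without the writer and 255 with it, and in 15 of the 39 both methylated libraries lay above both unmethylated ones. At 7 loci the adenosine had no count in any library. Their mean locus totals were at most 320.2 counts except in SKI. This locus, in a transcriptional corepressor gene and singled out after its values were seen, held 3487 counts over the 4 libraries. A count of 0 there allows a share of up to 0.0860% over the 4 libraries together. The methylated libraries held 931 and 864 of these counts, so the limit for them alone is wider.

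The 3 GAACG loci gave no usable comparison. BTBD9 had 0 and 0 counts without the writer and 0 and 3 with it, PIM3, a kinase gene, 1 and 1 against 0 and 6, and NDST1 none in any library. A response of GAACG loci was not detectable at this depth.

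In 42 loci at least 2 tag copies could be tested, and in 40 of them the estimates of the copies had one sign. In SLC35E1 (1.68 and −0.62) and the locus inside LRRC37A2 and RPRML (−0.30 and 0.92) the signs were opposite, and none of these 4 estimates passed the test. Among the single oligonucleotides tested, 87 rose by edgeR and 29 were not called, where 3.80% of all tested positions of single oligonucleotides rose. None fell, at an unadjusted p under 0.05 either. The remaining oligonucleotides of these loci did not pass the filter. A copy with little unmethylated signal could enter only through its methylated libraries, as did copies of CDIPT, MAFG and RNF126 with no unmethylated count. In such copies the filter fixed the sign, so these counts and the shared signs describe the tested copies alone. In 18 loci all 3 copies were tested: 10 rose in 3 copies, 3 in 2, 3 in 1 and 2 in none. The 3 copies of WDR6 gave log2 fold changes of 4.90, 4.78 and 3.75. In RNF126 the changes were 3.52, 9.45 and 4.57, with the highest from a copy that had no unmethylated count. SDHAF1 gave 0.46, 0.50 and 0.29, and LRFN1 0.45, 0.51 and 0.97, of which the last passed the threshold (edgeR adjusted p = 0.0455). The range over the 3 copies had a median of 1.21 on the log2 scale. The copies share the same 4 libraries and are no replicates of the incubation.

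The rise was centred on the selected adenosine. Over the 20 nucleotides on either side, ratios of the summed member signal lay between 0.616 and 1.52, against 3.66 at the adenosine. The value of 1.52 belonged to the guanosine immediately upstream, which had 163.3 and 153.3 CPM without the writer and 239.7 and 241.8 CPM with it. There 13 of 39 tested loci rose by edgeR, 1 fell, and all 13 also rose at the adenosine. Of all tested positions of the pool, 3.70% rose and 2.01% fell. Among the 13, WDR6 had the highest upstream signal, with 16.6 and 9.89 CPM against 35.5 and 38.2 CPM. At the cytosine behind the adenosine 1 of 36 tested loci passed the test, SDHAF1, which fell by 3.58 on the log2 scale (edgeR adjusted p = 0.00136). The ratio of 0.616 there depended on SDHAF1 in unmethylated replicate 1 and was 1.30 without that locus.

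Whether a G in the last position changed the response was examined against the 1032 loci of the same class with GGACH. Summed over loci, GGACG went from 261.8 ± 59.5 to 957.3 ± 151 CPM (SD, n = 2 each), a ratio of 3.66, and GGACH from 1336 to 5232 CPM, a ratio of 3.92. The log2 ratio of GGACG over GGACH was −2.52 and −2.22 without the writer and −2.32 and −2.60 with it. It changed by −0.09, with overlapping groups (exact permutation p = 0.667). By last base the ratio was 3.94 for GGACA, 5.32 for GGACC and 3.39 for GGACU. The log2 ratio of GGACG over GGACC fell by 0.54 without overlap between groups (exact permutation p = 0.333), whereas over GGACA it changed by −0.10 and over GGACU by 0.12, both with overlap.

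Weighting loci equally gave another order. In loci with a mean total of at least 1000 counts (66 GGACG and 550 GGACH, with medians of 3570 and 3678 counts), the median log2(CPM + 0.5) at the selected adenosine went from 0.32 ± 0.13 to 2.66 ± 0.07 in GGACG and from 0.05 ± 0.07 to 1.41 ± 0.02 in GGACH (SD, n = 2 each). GGACG exceeded GGACH by 0.12 and 0.41 without the writer and by 1.31 and 1.19 with it, so that the difference grew by 0.98. Against GGACA it grew by 0.61, against GGACC by 1.13 and against GGACU by 1.08. None of these 4 differences overlapped between groups, and each had an exact permutation p of 0.333, the smallest possible, and of 0.487 after Benjamini-Hochberg adjustment over 19 such comparisons. The 0.5 CPM added before taking logs shrinks changes more at low signal, and the GGACH medians were the lower ones. Its effect on these differences was not tested. Both methylated libraries lay above both unmethylated ones in 59 of the 66 GGACG loci (89.4%) and in 393 of the 550 GGACH loci (71.5%).

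Few loci carried the GGACG sum. SDHAF1 alone gave 35% of it without the writer and 13% with it, and the 3 loci with most signal gave 65.7% and 31.6%. Without SDHAF1 the GGACG ratio was 4.88, and the log2 ratio over GGACH changed by 0.33. For this the GGACH sum was left whole, so the sums were not trimmed alike. Without the 3 loci the ratio was 7.26. In the tested loci, 243 of 419 GGACH loci rose, with a median log2 fold change of 2.18, beside the 78.7% and 3.14 of GGACG. The share of loci that could be tested also differed, at 40.6% for GGACH and 62.9% for GGACG. No test over loci was made, and these shares of tested loci show no difference between the motifs by themselves.

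Beyond the motif, the 100 loci resembled the GGACH loci of their class in some features and differed in others. The GC content outside the 5-mer had a median of 60.3% against 59.6%, and the predicted mean probability that bases 49 to 53 were unpaired had a median of 0.44 against 0.43. A U preceded the 5-mer in 50 of the 100 loci, against 36.7% of GGACH loci, and a U followed it in 33 against 23.9%. Chromosome 19 held 17 of the 100 loci and 8.4% of the GGACH loci. Depth differed as well: the mean locus total had a median of 1865 counts in the 100 loci and 1166 in GGACH loci. Within the 61 tested loci, the log2 fold change and the predicted unpaired probability had a Pearson's r of 0.08 (Spearman's rho 0.07), and the change and GC content had an r of −0.29 (rho −0.28). The change and the mean unmethylated locus total had an r of −0.35 (rho −0.46). These are descriptions over loci that share 4 libraries, and shallow loci could be tested only where the methylated signal was high.

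Other motifs in the same 100 sequences also responded. At 42 further DRACG adenosines in 29 of the loci, 10 of 28 tested sites rose. At 216 DRACH adenosines in 90 loci the summed signal went from 288 ± 0.777 to 894 ± 25.7 CPM (SD, n = 2 each), and 33 of 87 tested sites rose. The ratios of summed signal were 3.52 and 3.11, beside 3.66 at the selected adenosine. Medians over tested sites were lower, with log2 fold changes of 1.27 at the further DRACG and 1.22 at the DRACH adenosines, beside 3.14. At the selected adenosine 78.7% of tested loci rose, and 3.70% of all tested positions of the pool did.

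Gene families were read from prefixes of the symbols, which leave out many genes of the same function. Of all tested members 48 of 61 rose (78.7%), where 3.70% of all tested positions did. So few tested loci cannot set a family apart from that share of members. Of 2 loci with prefixes of ubiquitin ligases and deubiquitinases, both rose: RNF126 and FBXL14, the latter from 58 and 44 to 399 and 214 counts. Of 2 loci with the kinase and phosphatase prefixes searched, CDK10 rose, from 9 and 22 to 98 and 60 counts, and PPP1R10 was not tested. The kinase genes DAPK3 and CSNK1D, which those prefixes leave out and which were singled out after their values were seen, rose by edgeR with log2 fold changes of 2.41 ± 0.34 and 3.18 ± 0.67 (SE; adjusted p = 5.12e-05 and 0.00399). Of 3 loci with the solute carrier prefix, the one inside SLC9A3 and its antisense gene rose, from 0.572 and 0.748 to 8.16 and 4.75 CPM, SLC35E1 was not called and SLC44A2 was not tested. No symbol began with ZNF, ZSCAN or ZBTB, with the prefixes of ribosomal proteins or with the names of the m6A machinery searched.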

How the data were processed

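Raw counts of reverse transcription stops per nucleotide were used as the authors deposited them, in 1 table with 141 positions per oligonucleotide and library. FastQC 0.11.8, bedtools 2.27.1 and STAR 2.7.3a appear in the submitters' processing notes. How each was used, and how duplicate reads were treated, was not given in the sources used.

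The 3 tag copies of a locus were added up. Positions with at least 10 counts in at least 2 libraries were tested with edgeR 4.0.16 in R 4.3.3 (quasi-likelihood, two-sided, TMM scaling, a model of the group only), with Benjamini-Hochberg adjustment over all tested positions and a threshold of 0.05. The code was also run on simulated counts with a spread setting common to all positions. That run cannot give the error rates in these data. DESeq2 1.42.0 was an alternative. Standard errors were derived from log2 fold changes and F statistics. A floor is 3 counts per library, and for SKI 3 counts over all libraries together. Pooled signals were compared by exact two-sided permutation of the libraries. Pairing was predicted with ViennaRNA 2.7.2.

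The build was not given; bases 51 to 90 of 56 loci of the pool occurred in RefSeq promoters of GRCh38.p14, all 56 at the deposited coordinate. Symbols come from RefSeq gene spans irrespective of strand: 84 of 100 loci lay in 1 gene, 15 in several, 1 in none. Exons and UTRs were not analysed here.

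The members, lists and comparisons were chosen with earlier results of these data known. Named loci were, among those past the threshold without overlap, the 10 largest rises and the strongest site of each 5-mer, with the 5 lowest tested loci, the 3 with highest CPM and up to 5 called in most copies. Loci from the gene family lists, GAACG loci and SKI are named besides. A further locus that this rule names is not reported here.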

Additional observations from a re-analysis of the deposited data

How the results depend on the processing

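The number of DRACG loci called higher was 34 to 50 in the alternatives that kept all 4 libraries, and 19 to 49 when 1 library was left out, with the low values where a methylated library was missing. With the replicate number as a block it was 48, 47 of them the same loci as without; the numbers did not pair the libraries (correlation of deviations −0.0787). The median log2 fold change was 2.92 against locus totals and 1.88 to 3.01 with 1 library left out. Each of the latter covers only the loci that passed the filter in the remaining libraries. The low values arose where a methylated library was missing and most loci with little unmethylated signal were not tested. The pooled ratio was 6.76 as a median over loci of the share of own counts (pooling and denominator changed together; the denominator alone gave 3.46), 4.88 without SDHAF1, and 7.26 and 6.43 without the 3 or 5 strongest loci. The change of GGACG over GGACH, −0.09 when pooled, was −0.24 to 0.06 with 1 library left out. It was 0.96 as a difference of medians over tested loci and 0.98 as a difference of medians of log2(CPM + 0.5) in deep loci. Without SDHAF1 it was 0.33, with the GGACH sum left whole. The settings without the 3 or 5 strongest loci, with deep loci, and without SDHAF1 for this change were added after seeing the data. GAACG was not compared with GAACH, since its loci held 0 to 6 counts per library. Among the alternative values of the 19 named loci, 175 kept direction and call, 1 lost its call and 4 gained one; NIBAN2 changed sign (−0.10 without unmethylated replicate 2, up to 1.40 with another library left out). The counts for the named loci leave out every setting in which a locus was filtered out or had no adjusted p. Most of the largest rises had no value in the fits without a methylated replicate. ERCC2/KLC3 and DCTN5 had no adjusted p in DESeq2. Of the 39 untested loci, 31 had a mean total under 1000 counts and 8 were at or above it.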

Other observations

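SDHAF1 had an uneven signal at the cytosine behind its selected adenosine. It held 2309 counts, or 220.2 CPM, in unmethylated replicate 1, against 11.5 CPM in unmethylated replicate 2 and 11.9 and 7.39 CPM in the methylated libraries. In each of the 3 tag copies that library had the most counts, for example 382 in the third copy against 18, 27 and 15. At the adenosine itself the same libraries had 827 and 1249 counts. The cause was not tested.

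GNB1L, singled out after its values were seen, had 16 counts in each unmethylated library and 81 and 14 in the methylated ones, so that the methylated libraries lay on either side of the unmethylated values.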
